A study of Mus musculus with 6 samples.

Results

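Nectins and the Cadm proteins are immunoglobulin superfamily adhesion molecules that join one cell membrane to another, and their genes were followed here in the cortex of newborn mice. The members were 8 genes, Nectin1 to Nectin4 and Cadm1 to Cadm4, taken with every probe set whose only gene symbol in the platform annotation was one of them. This gave 21 of the 45101 probe sets on the array, 13 for the 4 nectin genes and 8 for 3 Cadm genes, while Cadm2 was named for no probe set and is not analysed here. No measured value decided which probe set entered, but the gene families themselves were chosen from a comparison whose results were known, and Nectin3 was one of its higher genes. The members' differences between genotypes are therefore a description, printed with no p-value, and they support nothing beyond themselves.

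The tissue was subiculum and retrosplenial cortex dissected together on postnatal day 1 from C57BL/6 mice. There were 3 wildtype arrays and 3 arrays of D6/Zbtb20S transgenic littermates, in which the same areas are described as transformed towards CA1, a pyramidal cell field of the hippocampus. Zbtb20 is a zinc finger repressor of developing hippocampal neurons, and D6 is the name of a regulatory element of the Dach1 locus that drives transgenes in developing cortex and hippocampus, though the labels do not describe the construct. Each array held RNA pooled from 7 animals. Nothing in the sources says whether the pools of a genotype came from separate litters, so standard errors and tests cover only the spread between these pools. Whether a lower signal comes from fewer cells of a type or from less RNA per cell cannot be told apart in whole tissue.

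Nectins pair across the junction between cells, often one kind with another, and their tails hold the actin-binding scaffold afadin. In the hippocampus Nectin1 on axons meets Nectin3 on dendrites at adhesion sites beside the synapse. Cadm proteins, also called SynCAM or nectin-like molecules, span the synaptic cleft or join axons to glia, and their tails bind PDZ scaffolds such as Cask and membrane skeleton proteins of the band 4.1 family. Cadm3 can also bind nectins.

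The window before the transcription start is shown for Nectin3, whose signal differed most, and for Cadm3 and Cadm4. On every Cadm3 and Cadm4 probe set all D6/Zbtb20S arrays lay below all wildtype arrays, as they did on 11.8% of all probe sets. Of the Cadm3 and Cadm4 sets only the Cadm3 set 1418921_at was past an adjusted p of 0.05 in the limma fit on all probe sets. The windows are the 250 bases upstream of the start in RefSeq's GRCm38.p6 table, which held 6 of the 8 genes. They run 5′ to 3′ on the gene's strand, with each GC box (GGGCGG on either strand, the core site of Sp-type factors) in capitals.
Nectin3, chr16:46496968-46497217, minus strand: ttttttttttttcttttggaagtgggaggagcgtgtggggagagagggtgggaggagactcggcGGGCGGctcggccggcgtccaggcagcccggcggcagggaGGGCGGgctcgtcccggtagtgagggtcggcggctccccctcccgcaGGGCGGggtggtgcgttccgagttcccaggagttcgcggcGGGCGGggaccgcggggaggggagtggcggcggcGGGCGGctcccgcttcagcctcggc
Cadm3, chr1:173367696-173367945, minus strand: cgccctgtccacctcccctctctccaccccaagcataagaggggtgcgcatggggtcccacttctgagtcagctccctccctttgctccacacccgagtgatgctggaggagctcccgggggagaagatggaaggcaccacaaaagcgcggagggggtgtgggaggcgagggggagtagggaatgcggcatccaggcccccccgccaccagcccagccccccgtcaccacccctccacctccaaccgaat
Cadm4, chr7:24481773-24482022, plus strand: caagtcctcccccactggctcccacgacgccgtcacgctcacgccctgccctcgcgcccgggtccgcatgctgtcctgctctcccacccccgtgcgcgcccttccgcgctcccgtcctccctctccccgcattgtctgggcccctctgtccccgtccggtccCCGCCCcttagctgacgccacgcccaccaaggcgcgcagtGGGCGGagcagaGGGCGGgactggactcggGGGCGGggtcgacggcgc

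The Nectin3 window was 73.2% G and C and held 30 CpG dinucleotides and 5 GC boxes. The Cadm4 window was close to it in composition, with 75.2% G and C, 30 CpG dinucleotides and 4 GC boxes. The Cadm3 window had 66.8% G and C, 11 CpG dinucleotides and 0 GC boxes. Of 32851 windows of this length in the table, 32.7% held a GC box. An E-box (CANNTG, the site of basic helix-loop-helix factors) was in 66.2% of all windows and in none of the 3 shown. The member windows not shown, of Nectin2, Nectin4 and Cadm2, held 1, 2 and 1 E-boxes and 2, 0 and 1 GC boxes. TATAAA was in 12.4% of all windows and in none of the 3 shown. These matches describe letters only, and a link between them and the differences was not tested. Windows rich in CpG and GC boxes were found for Nectin3, which stood higher, and for Cadm4, whose lower signal was not called.

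Nectin3, the member whose partner in hippocampus is Nectin1, stood higher in D6/Zbtb20S tissue on all 6 of its probe sets, by 1.54-fold to 4.84-fold. On 1448673_at, the set with the highest mean signal, wildtype arrays 1, 2 and 3 read 6.35, 6.40 and 6.53 on the log2 scale and the D6/Zbtb20S arrays 8.43, 8.37 and 8.16. The genotypes were far apart there, with no array of one near the other. The difference was 1.89 ± 0.10 (standard error of the limma fit, n = 3 and 3 arrays), or 3.70-fold. On 1423331_a_at the wildtype arrays read 5.63, 5.76 and 5.95 and the D6/Zbtb20S arrays 8.28, 8.17 and 7.71, a difference of 2.28 ± 0.15 and the largest of any member. It was the 15th largest positive difference among the 45037 probe sets tested. On 1417319_at the wildtype arrays spread more, at 5.09, 5.63 and 5.94, below the D6/Zbtb20S values of 7.40, 7.33 and 7.05 (difference 1.70 ± 0.20).

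The other 3 Nectin3 sets gave smaller differences. On 1421133_at wildtype arrays read 4.55, 4.69 and 4.56 and D6/Zbtb20S arrays 5.15, 5.14 and 5.37, a difference of 0.62 ± 0.09 with no overlap. On 1421132_at the values were 2.57, 2.28 and 2.52 against 3.13, 3.26 and 3.26, a difference of 0.75 ± 0.10, again with no overlap. Every array lay under its own median signal on that set, where RMA compresses changes, so the fold may be too small. These 2 sets were designed on a different RefSeq transcript of Nectin3 from that of 1417319_at and 1448673_at, whose differences were 1.70 and 1.89. On 1457257_x_at, a set of the kind that can match other transcripts, the groups overlapped: wildtype arrays read 4.07, 3.87 and 4.65 and D6/Zbtb20S arrays 5.10, 4.60 and 5.04 (difference 0.72 ± 0.21).

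**Figure D1:**
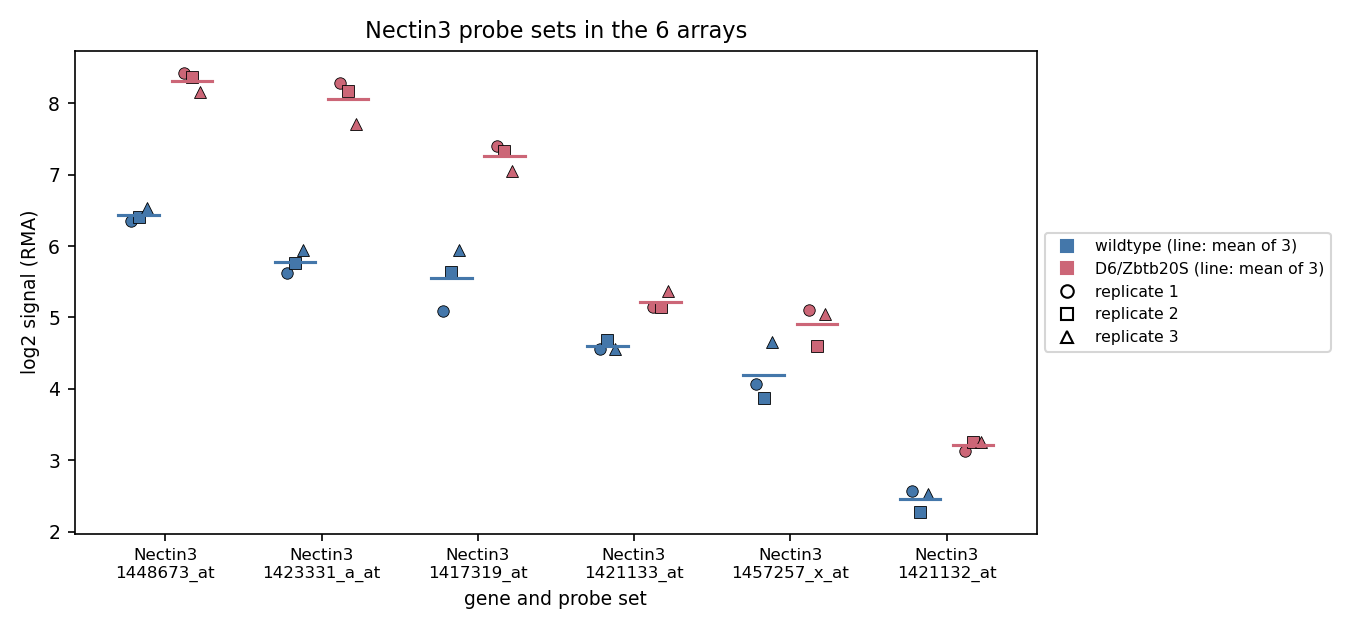
Each point is the log2 signal of 1 array on 1 Nectin3 probe set (vertical axis), with wildtype in blue, D6/Zbtb20S in red, a shape for each replicate number and a line at the mean of 3 arrays. On 5 of the 6 sets all D6/Zbtb20S arrays lie above all wildtype arrays, and on 1457257_x_at wildtype replicate 3 (4.65) lies above D6/Zbtb20S replicate 2 (4.60).

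Wildtype replicate 3 stood apart on the Zbtb20 sets and on a control of RNA integrity. It was the highest wildtype array on all 9 Zbtb20 sets, by a median of 1.06 above the mean of the other wildtype arrays. It was also the highest on 4 of the 6 Nectin3 sets, by a median over all 6 of 0.20. Its array median was the highest of the wildtype arrays too, at 3.91 against 3.83 and 3.87. The share over all probe sets was not counted, so the 4 of 6 is not read as particular to Nectin3. On the actin control of RNA integrity, the 3′ probe set of wildtype replicate 3 exceeded the 5′ one by 1.31, against 0.53 to 0.91 on the other arrays. Without it the Nectin3 differences were 1.94 on 1448673_at, 2.36 on 1423331_a_at, 1.90 on 1417319_at and 0.95 on 1457257_x_at. That last set then passed the threshold, as it also did over all 6 arrays with a replicate block, with equal array medians and with array weights. On 1421132_at and 1421133_at they were 0.79 and 0.60. The differences were thus similar or larger without wildtype replicate 3. Wildtype replicate 1 lay at the other end of the actin control, at 0.53. Without wildtype replicate 1 the difference on 1417319_at was smaller, at 1.47. The other sets then gave 1.85 on 1448673_at, 2.20 on 1423331_a_at, 0.66 on 1457257_x_at, 0.81 on 1421132_at and 0.60 on 1421133_at. The part of RNA integrity or of the Zbtb20 level in the Nectin3 values of either array was not tested.

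Nectin1, the axonal partner of Nectin3 and the founding member of the family, was measured on 3 sets, and none stood apart by genotype. On 1438421_at wildtype arrays read 5.34, 5.27 and 5.23 and D6/Zbtb20S arrays 5.05, 5.26 and 5.28, so the groups overlapped (difference -0.09 ± 0.09). Its other sets, 1438111_at and 1450819_at, lay under the array median on all 6 arrays with differences of -0.09 ± 0.08 and -0.09 ± 0.10. Nectin2, a widely expressed nectin, overlapped between genotypes on both sets. Wildtype arrays read 4.60, 4.75 and 4.66 on 1424456_at against 4.79, 4.68 and 4.85 in D6/Zbtb20S tissue (0.10 ± 0.08), and the difference was 0.18 ± 0.09 on 1417703_at. Nectin4, known mainly from epithelia and placenta, lay under the array median on every array and both sets, where 1428701_at read 2.93, 2.91 and 2.81 against 2.90, 2.85 and 2.70 (-0.07 ± 0.09). Its second set, 1451690_a_at, gave -0.07 ± 0.08. For signals this low the arrays set no useful limit on a change.

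The Cadm genes gave smaller differences, most of them downward. Cadm3, a neuronal member that binds other Cadm proteins and nectins, stood lower on all 3 of its sets with no overlap between genotypes. On its brightest set, 1449272_at, wildtype arrays read 8.46, 8.63 and 8.43 and D6/Zbtb20S arrays 7.93, 8.25 and 8.17, a difference of -0.39 ± 0.11, or 1.31-fold lower. On 1418922_at the values were 7.42, 7.60 and 7.63 against 7.30, 7.27 and 7.04 (-0.35 ± 0.10). On 1418921_at they were 6.27, 6.34 and 6.29 against 5.95, 5.83 and 6.05 (-0.36 ± 0.08). The 3 sets gave nearly the same difference, and 1418921_at alone passed the threshold. It passed in only 1 of the 6 fits that left out an array, the one without D6/Zbtb20S replicate 3, with differences between -0.41 and -0.30 over those fits. The fits that lost it left out any wildtype array or the first or second D6/Zbtb20S array. It also lost its call with a replicate block, where 1449272_at was called in its place, with an intensity trend and with the ordinary linear model. With array weights all 3 Cadm3 sets were called lower.

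Cadm4, which in myelinating glia faces the Cadm proteins of the axon, was measured on 1 set. Wildtype arrays read 9.48, 9.38 and 9.15 and D6/Zbtb20S arrays 8.80, 9.09 and 9.06, a difference of -0.35 ± 0.12. The lowest wildtype array was 9.15 and the highest D6/Zbtb20S array 9.09, so the groups were barely separate, and the set did not pass. Among the alternatives it passed with array weights alone.

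Cadm1, the founding synaptic adhesion molecule of its family, pointed both ways. On 1417377_at all D6/Zbtb20S arrays, at 9.32, 9.46 and 9.52, lay above the wildtype arrays at 8.74, 9.01 and 9.16 (0.46 ± 0.12). On 1417378_at, the brightest Cadm1 set, all D6/Zbtb20S arrays, at 9.67, 9.80 and 9.89, lay below the wildtype arrays at 9.96, 10.12 and 10.04 (-0.25 ± 0.09). Both sets were designed on the same RefSeq transcript, so the sign of the Cadm1 difference depended on the probe set read. The groups overlapped on 1417376_a_at (-0.16 ± 0.10) and on 1431611_a_at (-0.11 ± 0.11), and no Cadm1 set passed. The higher set, 1417377_at, did pass in 7 of 13 alternatives: without wildtype replicate 3 (0.56), with a replicate block, equal medians, quantile normalization, array weights or an intensity trend, and over bright sets only. The lower set, 1417378_at, passed in 1 of 13, with array weights. The mean of the 4 differences was -0.01.

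**Figure D2:**
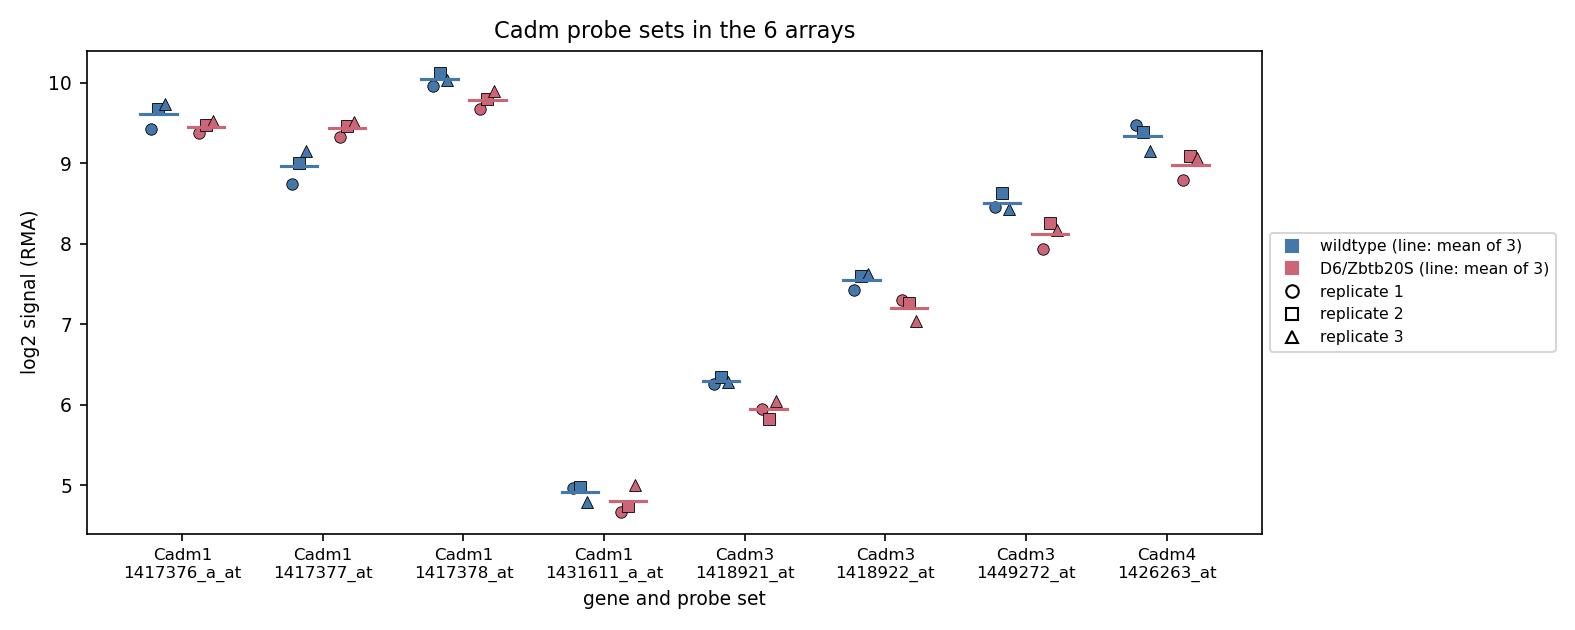
Each point is the log2 signal of 1 array on 1 Cadm probe set (vertical axis), drawn as for Nectin3, with wildtype in blue and D6/Zbtb20S in red. All 3 Cadm3 sets and the Cadm4 set are lower in every D6/Zbtb20S array, while the Cadm1 sets 1417377_at and 1417378_at separate in opposite directions.

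Over the 21 sets, 5 were past an adjusted p of 0.05 upward in the limma fit on all probe sets, and all 5 were Nectin3 sets. Of all probe sets tested, 3.40% were called higher. Downward 1 of the 21 was called, the Cadm3 set 1418921_at, against 2.11% of all probe sets. All D6/Zbtb20S arrays lay above all wildtype arrays on 6 of the 21 sets, 5 of Nectin3 and 1 of Cadm1, against 11.9% of all sets, and below them on 5, 3 of Cadm3 and 1 each of Cadm1 and Cadm4, against 11.8%. Because the families were proposed with this comparison known, nothing is read from these counts. The median difference was -0.07 over the 21 sets, -0.30 over the 8 Cadm sets and -0.02 over all probe sets. Of the 21 sets, 14 lay above the array median on every array, 5 lay under it on every array, and 2 were mixed. With an ordinary linear model, which does not pool the spread across probe sets, only 1448673_at of the members passed, with 200 of all probe sets. All 5 called Nectin3 sets passed whichever array was left out.

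**Figure D3:**
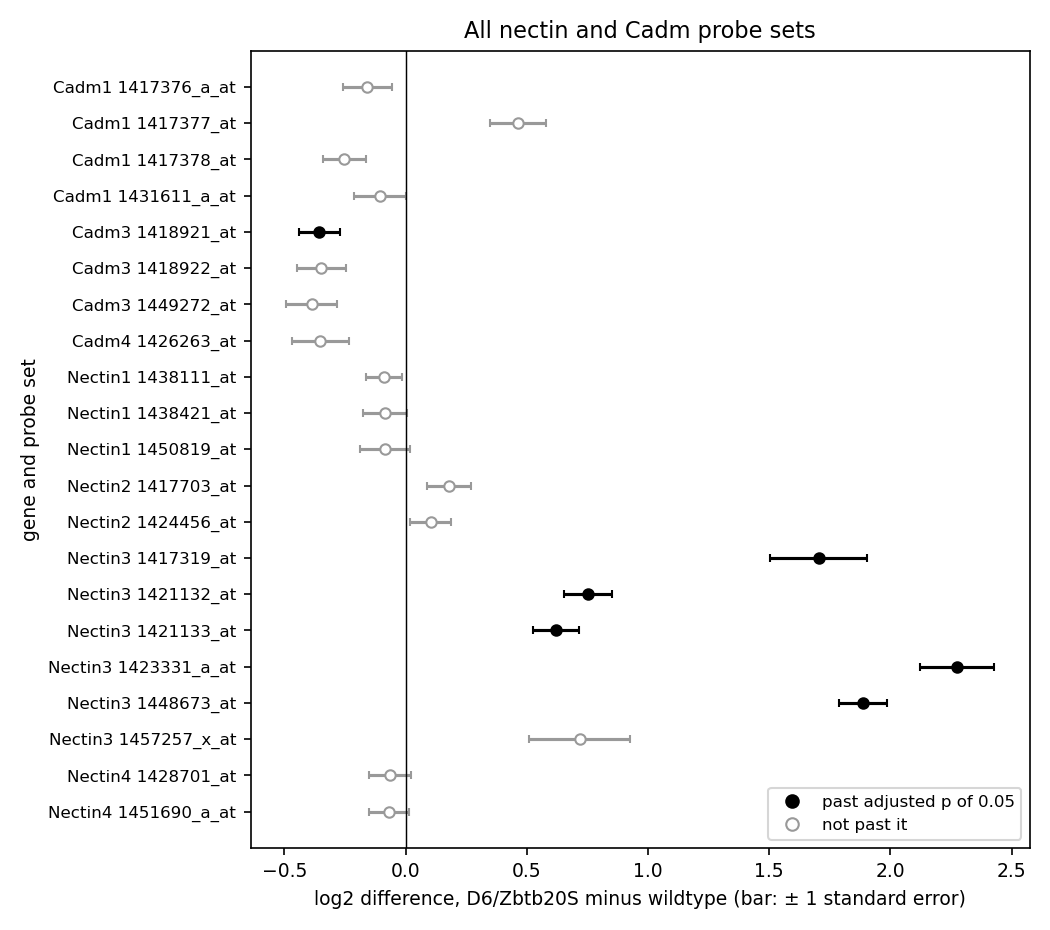
Each row is 1 of the 21 probe sets, and the horizontal axis gives its log2 difference, D6/Zbtb20S minus wildtype, with a bar of 1 standard error to each side. Filled points were past an adjusted p of 0.05 over all probe sets. Nectin3 sets lie between 0.62 and 2.28, and the 15 other sets between -0.39 and 0.46.

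Which genes read most like Nectin3 over the 6 arrays was asked with the root mean square difference between centred log2 values, on the brightest set of each gene. The closest was Olfm4, a secreted olfactomedin glycoprotein, at 0.09 log2 units, with a difference between genotypes of 1.89 ± 0.08. Its wildtype arrays read 3.36, 3.52 and 3.51, under their array medians of 3.83, 3.87 and 3.91, where RMA compresses changes. Next came Bmpr1b, a type I receptor of bone morphogenetic proteins (0.13), Slc35f3 (0.13), Fam189a1 (0.15) and the synaptic vesicle priming factor Unc13c (0.15). Their differences between genotypes ran from 1.87 to 2.02. Any gene with a difference of about that size comes close by this measure, which thus says nothing about shared control.

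The genes that work with these molecules were read from lists, 1 set per gene, in a limma fit over 18193 genes. In that fit 4.06% were called higher and 3.64% lower, and the median difference was -0.02. At an unadjusted p under 0.05, 1926 of the 18193 genes were higher and 1768 lower. Among 20 measured genes of the nectin and adherens junction, 0 rose and 2 fell in limma, against 1 and 3 at an unadjusted p under 0.05, with a list median of -0.03. The 2 were the Rac activator Tiam1 (-0.36 ± 0.09, adjusted p = 0.0378) and the guanine nucleotide exchange factor Vav2 (-0.36 ± 0.09, adjusted p = 0.0494). Neither of the 2 other Vav2 sets was called, both at -0.06, and the mean of its sets was -0.16 (adjusted p = 0.239). Of the 2 other Tiam1 sets, at -0.46 and -0.11, 1 was called, and the mean was -0.31 (adjusted p = 0.0797). Beta-catenin, Ctnnb1, which links cadherins to actin through alpha-catenin, missed the threshold on its brightest set (0.27 ± 0.08, adjusted p = 0.0829), though every D6/Zbtb20S array lay above every wildtype array there. Both other Ctnnb1 sets, at 0.43 and 0.66, were called higher in the fit over all probe sets. Afadin itself, Afdn, which ties nectins to actin, was at 0.13 ± 0.08 (adjusted p = 0.397), and N-cadherin, Cdh2, was at 0.03 ± 0.08 (adjusted p = 0.899). Vav2 did not pass when wildtype replicate 2 or 3 or any D6/Zbtb20S array was left out, and the same held for Tiam1 except that it passed without D6/Zbtb20S replicate 3. With the replicate number as a block, 0 of this list passed.

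Among 15 measured scaffolds and modifiers of the Cadm proteins, 1 rose and 2 fell, and the list median was -0.11. At an unadjusted p under 0.05 the limma counts were 2 higher and 4 lower. The called gene that rose was Lin7a, the PDZ scaffold that joins Cask and Apba1 in the presynaptic complex at the Cadm tail. Wildtype arrays read 6.41, 6.62 and 6.80 and D6/Zbtb20S arrays 7.96, 7.95 and 8.03, a difference of 1.37 ± 0.10, or 2.58-fold (adjusted p = 4.67e-05). The arrays of the genotypes were well apart, and both other Lin7a sets were also called higher, at 1.10 and 1.66. Its relatives Lin7b (-0.11 ± 0.08) and Lin7c (0.05 ± 0.08) and its partners Cask (-0.09 ± 0.10) and Apba1 (-0.04 ± 0.11) did not pass (adjusted p of 0.517 to 0.884). The PDZ scaffold Dlg1 fell (-0.37 ± 0.08, adjusted p = 0.0232), as did St8sia2, the sialyltransferase that adds polysialic acid to neural adhesion proteins (-0.37 ± 0.08, adjusted p = 0.0273). The second St8sia2 set pointed the other way at 0.41, and the mean of both sets was at 0.021. The 2 other Dlg1 sets were at -0.22 and -0.13 and were not called, and the mean of its sets was -0.24 (adjusted p = 0.16). Leaving out wildtype replicate 2 or 3, or the first or second D6/Zbtb20S array, ended the call of both genes, and leaving out D6/Zbtb20S replicate 3 ended that of St8sia2. The band 4.1 gene Epb41l3, a membrane skeleton partner of Cadm1, was at -0.38 ± 0.10 (adjusted p = 0.0548). Its 2 other sets were at -0.03 and 0.11 and were not called.

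None of 4 measured receptors of the nectin-like group passed, with a median of 0.06. They were Pvr, the poliovirus receptor homologue, and the lymphocyte counter-receptors Cd226, Cd96 and Crtam, and the last 3 lay under the array median on every array. The smallest p-values of the list were those of Crtam (0.11 ± 0.08, adjusted p = 0.483) and Cd226 (-0.08 ± 0.09, adjusted p = 0.696), and at an unadjusted p under 0.05 the limma count was also 0.

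Of 27 other immunoglobulin superfamily adhesion genes 1 rose and 4 fell, with a list median of -0.07. At an unadjusted p under 0.05 the limma counts were 3 higher and 9 lower, against 1926 and 1768 of all 18193 genes. The genes named next are those past the adjusted threshold. Igsf21, a synaptic adhesion molecule, was 2.89-fold lower, with wildtype arrays at 7.13, 7.27 and 6.74 and D6/Zbtb20S arrays at 5.56, 5.46 and 5.53 (-1.53 ± 0.13, adjusted p = 7.82e-05). The homophilic receptor Dscam (-0.53 ± 0.09, adjusted p = 0.00588), the L1 family member Nrcam (-0.51 ± 0.13, adjusted p = 0.0464) and the sidekick gene Sdk2 (-0.34 ± 0.09, adjusted p = 0.0392) also fell. Alcam, an axon adhesion molecule, rose (0.68 ± 0.12, adjusted p = 0.0095), and 3 of its 4 other sets were called higher too. None of the 4 other Dscam sets was called, and the mean of its sets was -0.26 (adjusted p = 0.0387). The other Sdk2 set was at -0.04 and not called, and Sdk2 lost its call as the mean of its sets (-0.19, adjusted p = 0.129) and with the replicate block (adjusted p = 0.0812). Of 3 other Nrcam sets 1 was called lower, and as the mean of its sets Nrcam was at -0.44 (adjusted p = 0.227). Ncam2, Chl1, Ntm and Kirrel3, not called on their brightest set, each had 1 other set called in the same direction as that set. Those same 4 arrays (wildtype replicates 2 and 3, the first and second D6/Zbtb20S arrays) each ended the calls of Nrcam and Sdk2 when left out, and D6/Zbtb20S replicate 3 ended that of Sdk2. With the ordinary linear model Lin7a and Igsf21 alone of these lists' called genes passed.

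**Figure D4:**
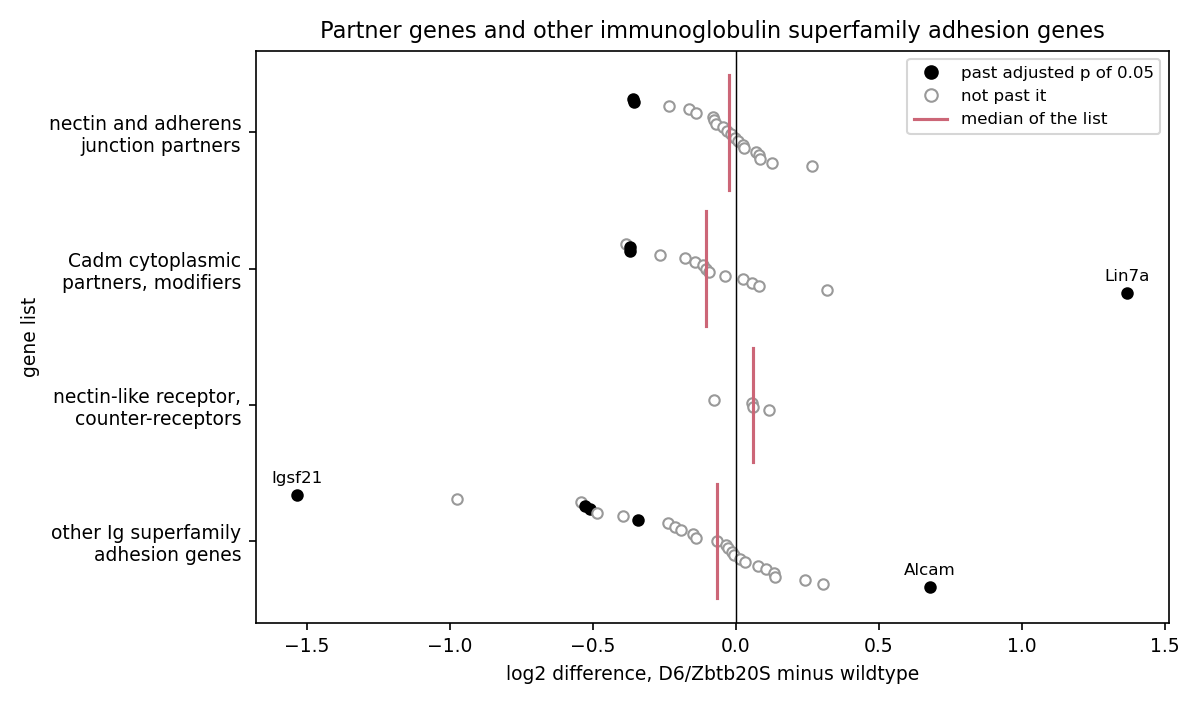
Each point is 1 gene of 4 lists, and the horizontal axis gives its log2 difference, D6/Zbtb20S minus wildtype, on its brightest probe set. Filled points were past an adjusted p of 0.05 over all genes and red lines are list medians. Lin7a (1.37), Alcam (0.68) and Igsf21 (-1.53) lie farthest out among the called genes.

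Markers of the tissue and of other cells were read in the same fit. All 6 retrosplenial and subicular markers were called lower, against 3.64% of all genes. The lists were chosen with earlier results of these data known, so nothing is read from that count. Of 4 measured glutamatergic neuron genes 1 rose and 1 fell. The neuronal transcription factor Neurod2 rose (1.12 ± 0.11, adjusted p = 0.000213) and the vesicular glutamate transporter gene Slc17a6 fell (-1.26 ± 0.17, adjusted p = 0.00141), while Neurod6 was at -0.14 ± 0.11 and Slc17a7 at 0.09 ± 0.15 (adjusted p of 0.551 and 0.786). The other Slc17a6 set was at 0.11 and not called, and of the 2 other Neurod2 sets 1 was called higher. Beside the lower Cadm3 and Cadm4 values, 4 of 7 oligodendrocyte lineage genes fell and 0 rose. The log2 of their summed signals, in which the brightest genes weigh most, was 9.94 to 10.2 in wildtype and 9.45 to 9.61 in D6/Zbtb20S arrays. Of 9 GABAergic genes 1 fell and 0 rose (9.94 to 10.0 against 9.67 to 9.75), and of 9 microglial genes 3 rose and 0 fell (8.85 to 8.98 against 9.18 to 9.48). At an unadjusted p under 0.05 these 3 lists had 6 lower, 3 lower and 6 higher genes and none the other way. Of all 18193 genes 1926 were higher and 1768 lower at that limit. In limma 0 genes passed among 9 of radial glia and astrocytes, 8 of vessels, 8 of meninges and choroid plexus and 6 of Cajal-Retzius cells, with 1, 1, 0 and 2 at an unadjusted p under 0.05. All measured oligodendrocyte, GABAergic and astrocyte markers lay above the array median on every array of both genotypes, as did 7 of the 9 microglial ones. The part of these cells in the Cadm3, Cadm4 and Nectin3 differences was not tested.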

How the data were processed

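Values were the authors' deposited log2 signals, 1 per probe set and array, from Affymetrix 3′ arrays hybridised with biotin-labelled RNA. RMA and limma are named in the submitters' processing notes, with versions and order not given in the sources used here. The number of arrays limits precision. After leaving out 64 control sets, 45037 were tested with limma 3.58.1 in R 4.3.3 (lmFit, eBayes, no covariates, Benjamini-Hochberg over all sets, threshold 0.05). Partner and marker lists used 1 set per gene, the brightest, over 18193 genes. Printed adjusted p values are from this gene fit, except where the mean of a gene's sets or the replicate block is named. Calls of member sets and of a gene's other sets are from the fit over all probe sets. Differences are D6/Zbtb20S minus wildtype with the moderated standard error. Members and lists were chosen with earlier results of these data known. All member sets are given, every called partner gene is named (otherwise the 2 with the smallest p), and 5 genes are named for likeness to Nectin3. Afdn, Cdh2, Ctnnb1, Epb41l3, Ncam2, Chl1, Ntm, Kirrel3, the glutamatergic genes and the relatives and partners of Lin7a were named after their values were seen. The fit was tested on simulated data. Upstream windows came from RefSeq. Figures used matplotlib 3.10.9 in Python 3.11.15. Alternatives were a replicate block, each array left out, other scalings, weights, variance models, filters and thresholds.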

Additional observations from a re-analysis of the deposited data

How the results depend on the processing

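No member difference changed sign under any of the alternatives run, and scaling arrays to equal medians or quantiles moved the median of all probe sets by under 0.1. The counts of calls moved more. Leaving out 1 array at a time gave 1162 to 2881 probe sets (2484 with all arrays), 777 to 1538 genes (1402), 5 to 7 member sets (6), 5 to 7 of them higher (5) and 0 to 1 lower (1). It gave 4 to 12 genes over the 4 partner lists (10), 0 to 2 in the junction list (2), 1 to 4 among Cadm scaffolds (3) and 3 to 7 among other adhesion genes (5). With the replicate block 8 member sets passed, 5 of them among the 6 called without it, and 0 junction genes. The deviations of same-numbered arrays had correlations of -0.21, 0.17 and -0.01. With 3 arrays per genotype these values cannot show whether same-numbered arrays shared anything beyond a number. The ordinary linear model called 200 probe sets, 267 genes, 1 member set (1 higher, 0 lower) and 2 partner genes (0 junction, 1 scaffold, 1 other adhesion). Array weights called 4710 probe sets, 2598 genes, 12 member sets (5 lower) and 18 partner genes (11 other adhesion). At a threshold of 0.01 there were 1062 probe sets, 693 genes, 0 member sets lower and 4 partner genes (0 junction, 1 scaffold, 3 other adhesion), and at 0.1 there were 10 member sets, 3 lower. Equal medians gave 8 other adhesion genes. An intensity trend gave 0 member sets lower and 1 junction gene. The mean of a gene's sets gave 6 partner genes (1 junction, 1 scaffold), and turned St8sia2 to 0.021. Where a count moved, the cause was not tested. Signal under the array median limits Nectin4, 2 Nectin1 sets and 1 Nectin3 set.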
